A study of Sus scrofa with 12 samples.

Results

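The laminin chains are 7 of the 21153 genes in a count table of porcine arterial endothelial cells (ECs). They were taken by gene symbol, matched from the pig Ensembl identifiers: the α chain genes LAMA3, LAMA4 and LAMA5, the β chain genes LAMB1, LAMB2 and LAMB3, and the γ chain gene LAMC1. RNA-seq had been performed on 12 cultures of primary ECs from 3 pigs of 8 months, untreated other than by flow, which ran for 48 h. Each donor gave a culture at the low wall shear stress (WSS) of 2 dyne/cm2, a culture at the supra-high WSS of 80 dyne/cm2 and a control at the physiological WSS of 30 dyne/cm2 for each of them, here called set 1 (control of 2 dyne/cm2) and set 2 (control of 80 dyne/cm2). All cultures had been grown on gelatin in serum, so a matrix was present before flow began. The labels call the cells aortic and the methods coronary. The series' design text names another flow slide, seeded more densely, for supra-high WSS and its control than for low WSS and its control, so by that text, but not by the methods, set 1 and set 2 differ by slide.

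Laminins are secreted as heterotrimers of an α, a β and a γ chain, joined along a coiled coil, and are named by the chain numbers, so that laminin-411 holds α4, β1 and γ1. The short arms of the chains join laminins into a network and γ1 binds nidogen, while the end of the α chain carries the main binding sites for integrins and dystroglycan. In the endothelial basement membrane the best known forms are laminin-411 and laminin-511, and α5 laminins are bound more firmly by integrins α3β1 and α6β1 than α4 laminins are.

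Total counts lay between 29606854 and 41058902 per library (median 33871914). Levels are CPM (each gene's counts relative to the library total, after TMM scaling), and 3 counts corresponded to 0.0743 to 0.099 CPM. Of 10 endothelial markers, 8 were matched and all 8 were at 1 CPM or more in every group, PECAM1 at 1960 to 3810 CPM by group mean; VWF and CLDN5 were not matched by symbol. Their summed CPM also differed with WSS, from 4660 to 5670 at 2 dyne/cm2, 6750 to 7900 in set 1, 6470 to 7540 in set 2 and 8390 to 8490 at 80 dyne/cm2. At 80 vs. 30 dyne/cm2, 1 of the 8 was called, beside 2.2% of all genes. At 2 vs. 30 dyne/cm2, 2 of the 8 were called, beside 9.6% of all genes. TEK was 1 of these 2, at 65.5 CPM against 499 CPM in set 1 by group mean. The markers differed unevenly: by group mean PECAM1 was at 1960 against 3222 CPM, ESAM at 410 against 610, KDR at 42.2 against 86.5 and EMCN at 22.9 against 70.8. CDH5 was at 1695 against 1841 CPM, TIE1 at 610 against 703 and ERG at 364 against 428. The 3 matched flow markers KLF2, KLF4 and NOS3 were all lower at 2 vs. 30 dyne/cm2, KLF2 with a log2 fold change of -4.35 ± 0.53 (SE, adjusted p = 0.00906; -3.72 without donor 1 and -4.99 without donor 2). The summed CPM of 5 fibroblast markers differed with WSS, from 360 to 1190 at 2 dyne/cm2, 159 to 232 in set 1, 123 to 518 in set 2 and 45.2 to 64.6 at 80 dyne/cm2, most of it COL3A1. Of these 5, 2 were called at 2 and 1 at 80 dyne/cm2, beside 9.6% and 2.2% of all genes. By group mean COL3A1, COL1A1, DCN and PDGFRA were higher at 2 dyne/cm2 than in set 1, and LUM was lower (6.12 against 7.32 CPM). The sum of 8 smooth muscle and pericyte markers was 3.52 to 10.1 CPM at 2 dyne/cm2, 1.86 to 2.5 in set 1, 1.84 to 2.9 in set 2 and 1.97 to 2.42 at 80 dyne/cm2. Of these 8, 1 was called at 2 dyne/cm2, beside 9.6% of all genes: PDGFRB, which was higher (4.32 against 0.801 CPM by group mean). In set 1 PDGFRB was at 1.24, 0.207 and 0.96 CPM, so it met the cut of 1 CPM in 3 libraries through the cultures at 2 dyne/cm2. By group mean NOTCH3 (1.31 against 0.383 CPM), MYH11, ACTA2 and TAGLN were also higher at 2 dyne/cm2, and CNN1 and RGS5 lower. MYH11 stayed under 1 CPM by group mean and DES was at 0 in every library. Leukocyte markers (5 genes) summed to 8.17 to 11.2 CPM at 2 dyne/cm2 and 12.8 to 28.1 CPM in the other groups, and the 2 matched epithelial markers to at most 0.161 CPM. Among the 5 leukocyte markers, 1 was called at 2 dyne/cm2, beside 9.6% of all genes. Adjusted p-values are those of edgeR's quasi-likelihood test with the donor as a block, Benjamini-Hochberg adjusted over all genes tested. A gene was called at a change of at least 2-fold with an adjusted p under 0.05.

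At 2 vs. 30 dyne/cm2 the α chain genes moved apart: LAMA3 was up-regulated 10.4-fold from a mean of 0.763 CPM, and LAMA5 was down-regulated 2.7-fold. The γ1 gene LAMC1 was lower with an adjusted p under 0.05 but by less than 2-fold. Of the 7 chains, 6 could be tested, 1 was called higher and 1 lower; of all 11226 genes tested, 5.06% were called higher and 4.54% lower, 9.6% together. By adjusted p alone 3 of 6 chains passed, 1 higher and 2 lower, beside 25.8% of all genes (13.4% higher, 12.4% lower). The median log2 fold change was -0.23 over the 6 chains and 0.0025 over all genes.

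At 80 vs. 30 dyne/cm2 the largest difference among the 5 chains tested was that of LAMA5, which was higher by 1.77-fold with an adjusted p under 0.05. Of the 7 chains, 5 could be tested and 0 were called by edgeR, and 0 by DESeq2 with the donor block, beside 2.2% of all 11187 genes. At an unadjusted p under 0.05, 2 chains passed with edgeR and 3 with DESeq2, beside 2921 and 2338 of all genes. LAMA5 was the 1 of 5 that passed by adjusted p alone, beside 8.4% of all genes (4.36% higher, 4.04% lower). The median log2 fold change was 0.20 over the 5 chains and -0.0058 over all genes.

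**Figure D1:**
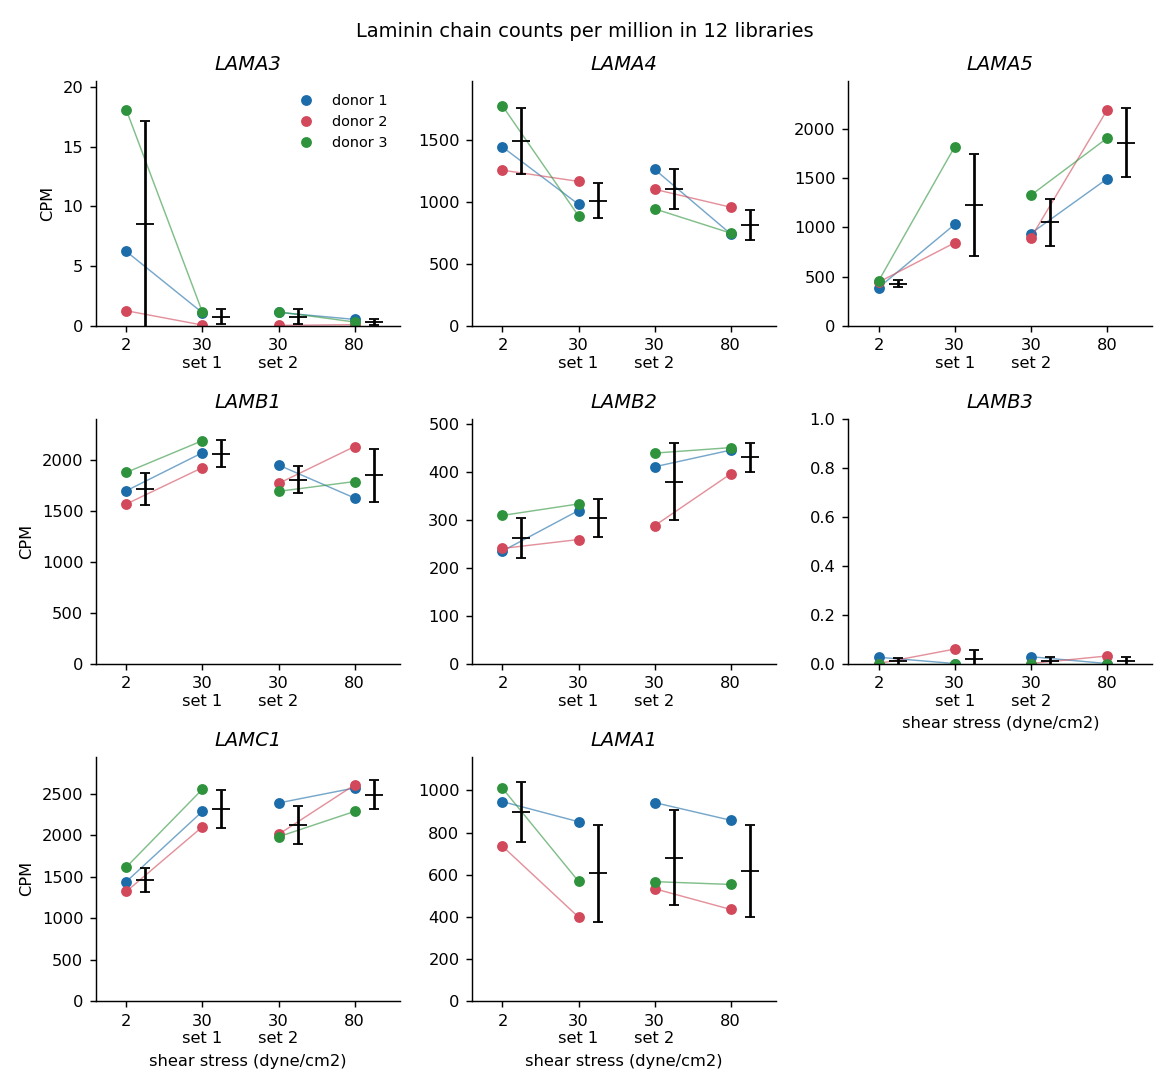
CPM of the 7 laminin chains and LAMA1 in the 12 libraries (y axis, linear, from 0; LAMB3 on a scale of 0 to 1) at each shear stress (x axis, dyne/cm2). Points are donors, joined within each comparison, and bars give the mean ± SD of 3 donors, cut at 0 for LAMA3; LAMA5 lay between 387 and 455 CPM at 2 dyne/cm2 and between 1492 and 2189 CPM at 80 dyne/cm2.

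LAMA5 (ENSSSCG00000032761; Sscrofa11.1 chromosome 17, 61698370 to 61747795) encodes the α5 chain, an integrin-binding α chain of mature endothelial basement membrane. In donors 1, 2 and 3 it was at 387, 443 and 455 CPM at 2 dyne/cm2, which makes 428 ± 36.3 CPM (SD, n = 3). Set 1 was at 1030, 844 and 1819 CPM, which makes 1231 ± 518 CPM. All cultures at 2 dyne/cm2 lay below all cultures of set 1, and the difference was -1.43 ± 0.22 on the log2 scale (SE, adjusted p = 0.0149), lower in 3 of 3 donors. The spread in set 1 came from donor 3, and within donors the log2 differences were -1.41, -0.93 and -2.0.

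At 80 dyne/cm2 LAMA5 was at 1492, 2189 and 1906 CPM, or 1862 ± 350 CPM (SD, n = 3). Set 2 was at 937, 891 and 1326 CPM, or 1052 ± 239 CPM. These groups did not overlap either, but donor 3 of set 1, also at 30 dyne/cm2, lay within the range at 80 dyne/cm2. The log2 difference of 0.83 ± 0.17 (SE) had an adjusted p of 0.028 and was positive in 3 of 3 donors. That p was over 0.05 without the donor block (0.47), without donor 2 (0.0536), without donor 3 (0.13), in one fit of all 12 libraries (0.0629), against both sets at 30 dyne/cm2 (0.0504) and against set 1 (0.324). It was under 0.05 with RLE normalization (0.0297), with filterByExpr (0.0272), without a filter (0.00521) and without donor 1 (6.88e-08). DESeq2 with the donor block gave an adjusted p of 6.51e-06. The result thus depends on the setting.

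LAMA4 (ENSSSCG00000004425; chromosome 1, 78071990 to 78224564) encodes the α4 chain, a short α chain without the N-terminal arm, typical of vascular basement membranes. It was at 1440, 1254 and 1771 CPM at 2 dyne/cm2 (1488 ± 262, SD, n = 3). In set 1 it was at 978, 1163 and 885 CPM (1008 ± 141). The groups did not overlap, but the log2 difference of 0.57 ± 0.20 (SE) had an adjusted p of 0.092, with donor values of 0.56, 0.11 and 1.00.

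At 80 dyne/cm2 LAMA4 was at 740, 955 and 746 CPM (814 ± 122, SD, n = 3). Set 2 was at 1260, 1099 and 942 CPM (1101 ± 159). Donor 2 at 80 dyne/cm2 lay just above donor 3 of set 2, so the groups overlapped, although all 3 donors were lower at 80 dyne/cm2. The log2 difference was -0.44 ± 0.13 (SE, adjusted p = 0.0905). DESeq2 with the donor block gave adjusted p-values of 0.0175 at 2 and 0.0129 at 80 dyne/cm2 for this gene, both below 2-fold.

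LAMA3 (ENSSSCG00000003709; chromosome 6, 108548818 to 108805700) encodes the α3 chain, known best from epithelial laminins. It was a low-count gene here, with 242, 39 and 547 counts at 2 dyne/cm2 and 44, 2 and 38 counts in set 1. In CPM this was 6.22, 1.26 and 18.1 at 2 dyne/cm2 against 1.09, 0.059 and 1.14 in set 1. Every culture at 2 dyne/cm2 lay above every culture of set 1, but the cultures at 2 dyne/cm2 differed widely from each other, at 8.51 ± 8.63 CPM (SD, n = 3). Donor 2 was the lowest in all 4 groups.

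The LAMA3 difference at 2 vs. 30 dyne/cm2 was 3.38 ± 0.39 on the log2 scale (SE, adjusted p = 0.00839), or 10.4-fold, and positive in 3 of 3 donors. Without the donor block the value was 3.49 with an adjusted p of 0.112, and without donor 1, whose difference was the smallest, it was 4.07. Of the spread in log2 CPM of this gene over the 12 libraries, 53.3% went with condition and 41.4% with donor. The fibroblast and the smooth muscle and pericyte marker sums were also highest at 2 dyne/cm2, where the endothelial sum was lowest, as were LAMA5 and LAMC1. In bulk RNA a change in the number of cells of a type and one in RNA per cell cannot be told apart, and the part of these markers in the LAMA3, LAMA4, LAMA5 and LAMC1 values was not tested.

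LAMA3 at 80 dyne/cm2 had 20, 3 and 10 counts (0.534, 0.0923 and 0.315 CPM), against 40, 1 and 46 counts in set 2 (1.11, 0.0301 and 1.17 CPM). It did not reach 1 CPM in 3 libraries of this comparison and was not tested. Donors 1 and 3 were lower at 80 dyne/cm2, and donor 2 had at most 3 counts in both cultures. Without the filter on low counts the fitted value was -1.22 ± 0.45 (SE, adjusted p = 0.13).

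LAMA1 is no member of the group but the remaining α gene that was detected (ENSSSCG00000034767; chromosome 6, 100332843 to 100468457, where RefSeq places an overlapping gene, LOC110261169). It encodes the α1 chain, best known from embryonic basement membranes. It was at 947, 735 and 1010 CPM at 2 dyne/cm2 and at 852, 399 and 569 CPM in set 1, with a log2 difference of 0.64 ± 0.18 (SE, adjusted p = 0.0563). In set 2 it was at 942, 534 and 567 CPM and at 80 dyne/cm2 at 859, 436 and 554 CPM, a log2 difference of -0.16 ± 0.10 (SE, adjusted p = 0.371). LAMA1 differed more by donor (56.8% of its spread) than by condition (31.3%), with donor 1 the highest in every group but that at 2 dyne/cm2.

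LAMC1 (ENSSSCG00000015555; chromosome 9, 124283668 to 124405967) encodes the γ1 chain, which carries the nidogen-binding site and is shared by most laminins. At 2 dyne/cm2 it was at 1441, 1322 and 1616 CPM (1460 ± 148, SD, n = 3). In set 1 it was at 2287, 2101 and 2554 CPM (2314 ± 228). The groups did not overlap, and the 3 donors gave almost the same log2 difference, -0.67, -0.67 and -0.66.

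The fitted LAMC1 difference at 2 vs. 30 dyne/cm2 was -0.65 ± 0.12 (SE, adjusted p = 0.0198), 1.57-fold lower. The adjusted p was 0.14 without donor 1 and 0.0794 without donor 2. LAMC1 at 80 dyne/cm2 was at 2568, 2606 and 2286 CPM, and in set 2 at 2388, 2010 and 1981 CPM. These groups overlapped, and the log2 difference was 0.23 ± 0.12 (SE, adjusted p = 0.297), positive in 3 of 3 donors.

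LAMB1 (ENSSSCG00000015444; chromosome 9, 107670120 to 107747242) encodes the β1 chain, the more widespread β chain. An annotated lncRNA, LOC100623096, overlaps it, and as no strand-specific counting is stated the reads of both cannot be told apart. LAMB1 was at 1696, 1566 and 1876 CPM at 2 dyne/cm2 and at 2070, 1923 and 2188 CPM in set 1. The groups did not overlap, but the log2 difference of -0.25 ± 0.12 (SE) had an adjusted p of 0.162. In set 2 it was at 1949, 1768 and 1690 CPM and at 80 dyne/cm2 at 1625, 2130 and 1786 CPM, with donors moving either way (0.03 ± 0.14, SE, adjusted p = 0.929).

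LAMB2 (ENSSSCG00000011377; chromosome 13, 31738282 to 31750623) encodes the β2 chain, known from kidney glomeruli, synapses and arterial walls. It was at 235, 240 and 309 CPM at 2 dyne/cm2 and at 319, 259 and 333 CPM in set 1. In set 2 it was at 411, 288 and 439 CPM and at 80 dyne/cm2 at 446, 396 and 451 CPM. Both pairs of groups overlapped, although all 3 donors were lower at 2 and higher at 80 dyne/cm2 than in their control. The log2 differences were -0.20 ± 0.11 (SE, adjusted p = 0.209) and 0.20 ± 0.11 (SE, adjusted p = 0.299).

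LAMB3 (ENSSSCG00000015618; chromosome 9, 133298009 to 133351162, with the overlapping lncRNA LOC102158978) encodes the β3 chain of epithelial laminin. It had at most 2 counts in any library and 5 counts over all 12, under the floor of 3 counts per library. LAMB4 and LAMC3 were no higher than 2 counts in any library. At this depth LAMB3, LAMB4 and LAMC3 were not detectable beyond the floor in any condition. LAMA2 was not matched by symbol and was not analysed here.

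**Figure D2:**
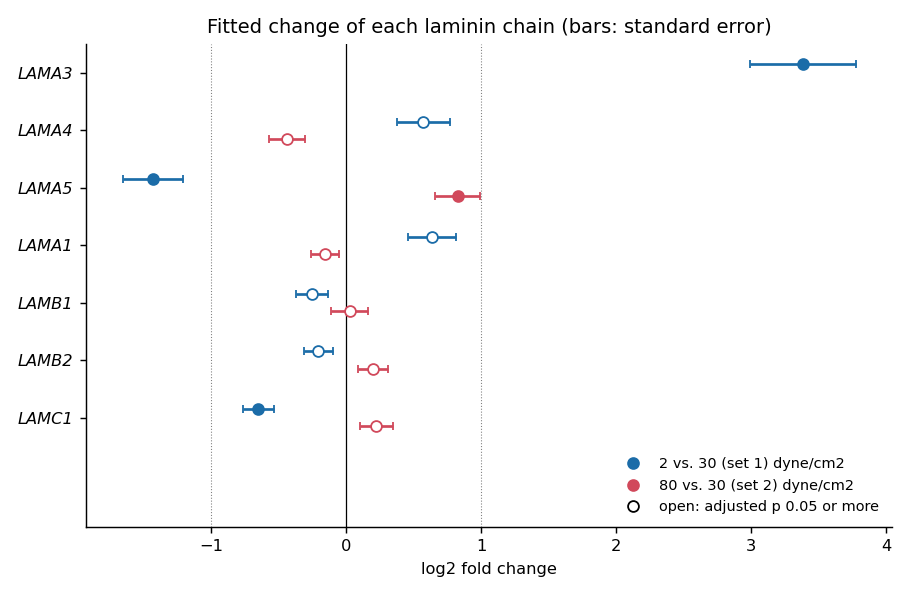
Fitted log2 fold change (x axis) of each tested laminin chain and LAMA1 (y axis) at 2 vs. 30 dyne/cm2 (blue) and 80 vs. 30 dyne/cm2 (red), with SE bars. Filled points have an adjusted p under 0.05 and dotted lines mark 2-fold; LAMA5 lay at -1.43 and 0.83, and LAMA3 at 3.38 has no value at 80 dyne/cm2.

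Whether the chains responded differently to supra-high and low WSS was tested as the response to 80 dyne/cm2 minus that to 2 dyne/cm2, over all 12 libraries; these comparisons share donors but no library. Of 6 chains tested, 4 passed, 2 with a positive and 2 with a negative difference, beside 37.1% of all 11568 genes (17.9% positive, 19.3% negative). LAMA5 (2.29 ± 0.30, SE, adjusted p = 0.000504) and LAMC1 (0.87 ± 0.18, adjusted p = 0.00466) had the more positive response at 80 dyne/cm2. LAMA3 (-4.64 ± 0.69, SE, adjusted p = 0.001) and LAMA4 (-1.04 ± 0.25, adjusted p = 0.0107) had the more negative one.

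The sign of that difference was shared by 3 of 3 donors for each of these chains, but also for LAMB1, LAMB2 and LAMA1, so it does not set them apart. For LAMA3, donor 2 had 2 counts in set 1, 1 in set 2 and 3 at 80 dyne/cm2. Neither β chain passed, at 0.27 ± 0.19 (SE, adjusted p = 0.274) for LAMB1 and 0.39 ± 0.15 (adjusted p = 0.0696) for LAMB2, although LAMB2 passed with DESeq2 (adjusted p = 0.0439). The LAMA4 p was 0.104 without donor 1 and 0.0761 without donor 3, and the LAMA3 p was 0.105 without the donor block. The LAMA3 difference was -5.43 without donor 1 and -3.70 without donor 3. LAMA1 went the way of LAMA3 and LAMA4 (-0.82 ± 0.22, SE, adjusted p = 0.0168), with an adjusted p of 0.319 without the block, 0.165 without donor 2 and 0.0966 without donor 3.

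Set 2 vs. set 1, both at 30 dyne/cm2, gives the background of the design. The series' design text has slide and seeding differ between them, whereas the methods give a single slide type and density for all flow experiments. Of 6 chains tested, 0 were called with edgeR or DESeq2. Of all 11163 genes, 1 was called by edgeR (0.00896%) and 66 by DESeq2. At an unadjusted p under 0.05, 1 chain passed with either tool, beside 2146 of all genes with edgeR and 1570 with DESeq2. The widest difference was that of LAMB2, at 0.31 ± 0.08 (SE, adjusted p = 0.142), higher in set 2 in 3 of 3 donors and larger than either of its WSS differences. DESeq2 with the donor block gave it an adjusted p of 0.042. The other fitted differences lay between -0.19 and 0.13.

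The balance between chains was followed as the log2 ratio of the counts of 2 chains within a library, in which gene length, depth and scaling cancel when cultures of a donor are compared. The LAMA5/LAMA4 count ratio was 0.269, 0.353 and 0.257 in the 3 donors at 2 dyne/cm2 and 1.05, 0.726 and 2.06 in set 1. It was 0.744, 0.811 and 1.41 in set 2 and 2.02, 2.29 and 2.55 at 80 dyne/cm2. Within each donor the ratio was lowest at 2 dyne/cm2 and highest at 80 dyne/cm2. Between donors, donor 3 of set 1 lay just above donor 1 at 80 dyne/cm2.

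Within donors the log2 LAMA5/LAMA4 ratio was 2.00 ± 0.98 lower at 2 dyne/cm2 than in set 1 (SD, n = 3; 4.01-fold lower, exact sign permutation p = 0.25, 2-sided). It was higher by 1.27 ± 0.35 at 80 dyne/cm2 than in set 2 (SD, n = 3; 2.4-fold, exact p = 0.25). With 3 donors 0.25 is the smallest p that this test can give. Between the sets at 30 dyne/cm2 the ratio changed by -0.30 ± 0.40 (SD, n = 3; exact p = 0.5).

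Against the common γ1 chain, the ratio LAMA4/LAMC1 changed by 1.22 ± 0.44 at 2 dyne/cm2 and -0.66 ± 0.18 at 80 dyne/cm2 (SD, n = 3, exact p = 0.25 for both). LAMA5/LAMC1 changed by -0.78 ± 0.54 and 0.60 ± 0.30 (exact p = 0.25 for both). LAMB1/LAMC1 changed by 0.40 ± 0.04 and -0.20 ± 0.15 (exact p = 0.25 for both). With the sets exchanged, LAMA4/LAMC1 at 80 dyne/cm2 was -0.42, and LAMA5/LAMA4 was -1.71 at 2 and 0.97 at 80 dyne/cm2. The LAMA4 and LAMB1 counts were thus higher relative to LAMC1 at 2 dyne/cm2 and lower at 80 dyne/cm2 in 3 of 3 donors, and those of LAMA5 the reverse.

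LAMB2/LAMB1, the balance of the β chains, changed by 0.05 ± 0.18 at 2 dyne/cm2 (SD, n = 3, exact p = 0.75) and by 0.18 ± 0.21 at 80 dyne/cm2 (exact p = 0.5). Between the sets at 30 dyne/cm2 it changed by 0.50 ± 0.25 (exact p = 0.25), so its values depend on the control: with the sets exchanged they were -0.45 at 2 and 0.67 at 80 dyne/cm2. LAMA1/LAMA4 changed by 0.07 ± 0.62 (exact p = 1) and 0.28 ± 0.36 (exact p = 0.5), less than the spread between donors. In all, 6 ratios were compared in 3 pairs of groups, and none can pass a correction at this number of donors.

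**Figure D3:**
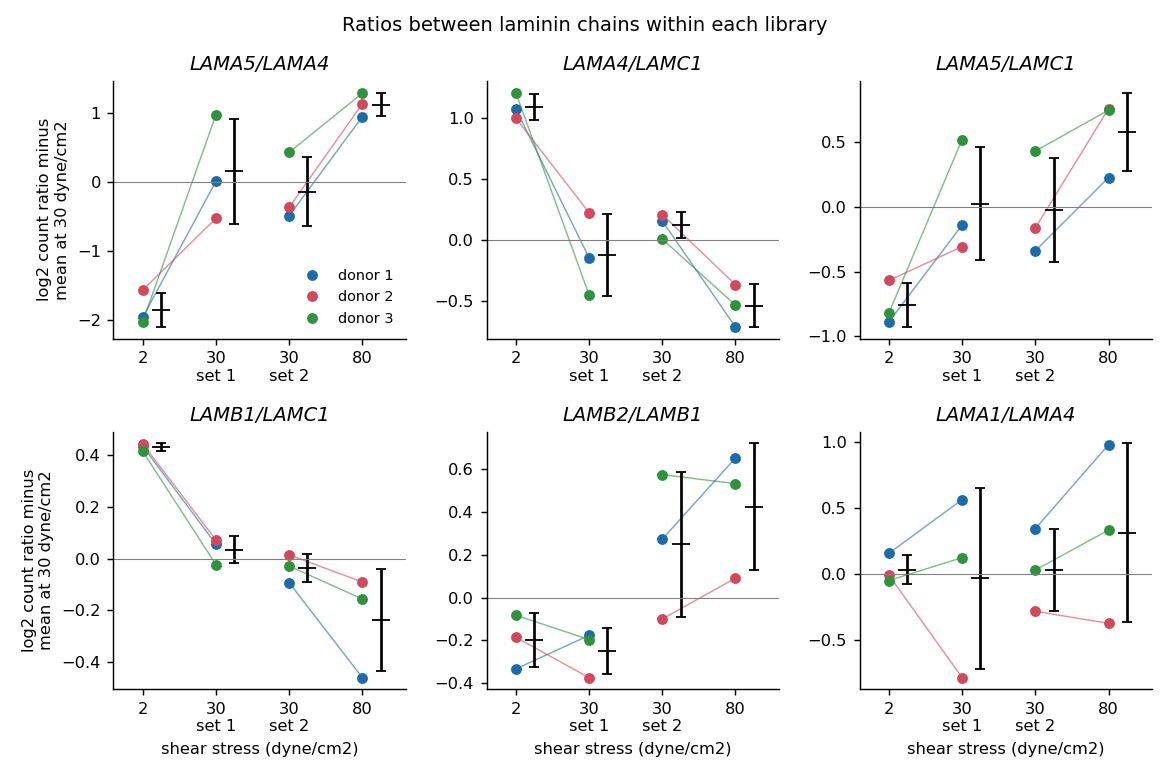
Log2 count ratio of 2 laminin chains minus its mean at 30 dyne/cm2 (y axis) at each shear stress (x axis, dyne/cm2), for 6 chain pairs. Points are donors joined within each comparison and bars give the mean ± SD of 3 donors; LAMA5/LAMA4 was 4.01-fold lower at 2 dyne/cm2 than in set 1 and 2.4-fold higher at 80 dyne/cm2 than in set 2.

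Which heterotrimers the chains allow was read from the presence of all 3 transcripts at 1 CPM or more in a library. Laminin-411, laminin-421, laminin-511 and laminin-521, with the α4 or α5 chain, were allowed in all 3 cultures of each group, and so were laminin-111 and laminin-121 with α1. No chain of these 6 trimers fell below 1 CPM in any library. Laminin-311 and laminin-321, which need α3, were allowed in 3 of 3 cultures at 2 dyne/cm2, 2 of 3 in each set at 30 dyne/cm2 and 0 of 3 at 80 dyne/cm2. These counts depend on the cut at 1 CPM. LAMA3 was at 1.26 CPM in donor 2 at 2 dyne/cm2 and at 1.09 to 1.17 CPM in the cultures at 30 dyne/cm2 that passed. At 80 dyne/cm2 it had 20, 3 and 10 counts, over the floor of 3 counts in donors 1 and 3. No trimer with β3 was allowed in any library. Transcript presence does not show which trimers were assembled or secreted.

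Laminin receptors were described from a list of 14 genes, of which 13 were matched and 12 tested. At 2 vs. 30 dyne/cm2, 1 was called higher and 2 lower, beside 5.06% and 4.54% of all genes, and the median log2 fold change was -0.29. ITGA6, the α subunit of the laminin receptor integrins α6β1 and α6β4, was at 157, 167 and 194 CPM at 2 dyne/cm2 and at 559, 511 and 1034 CPM in set 1 (-1.94 ± 0.18, SE, adjusted p = 0.00607). SDC1, a heparan sulfate proteoglycan, was also lower (-1.53 ± 0.13, adjusted p = 0.00537).

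ITGA1, the α subunit of a collagen and laminin receptor, was the gene called higher, at 35.7, 25.7 and 70.9 CPM against 12.1, 10.5 and 7.41 CPM in set 1 (2.03 ± 0.42, SE, adjusted p = 0.0277; 1.44 without donor 3). ITGA3, which pairs with β1 to bind α5 laminins, was lower by less than 2-fold (-0.90 ± 0.11, adjusted p = 0.00905), and so was ITGA2 (-0.90 ± 0.09, adjusted p = 0.00681). The integrin genes ITGA6 and ITGA3 and LAMA5 were thus lower in 3 of 3 donors at 2 dyne/cm2.

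At 80 vs. 30 dyne/cm2, 0 receptors were called by edgeR or DESeq2, beside 2.2% of all genes called by edgeR, and the median was 0.23. At an unadjusted p under 0.05, 5 receptors passed with edgeR and 6 with DESeq2, beside 2921 and 2338 of all 11187 genes. By adjusted p alone ITGA3 (0.71 ± 0.10, SE, adjusted p = 0.00829), ITGA6 (0.54 ± 0.11, adjusted p = 0.0286) and CD151, a tetraspanin bound to laminin-binding integrins (0.48 ± 0.12, adjusted p = 0.0485), were higher. All 3 lay closer to set 1. By group mean at 80 dyne/cm2, in set 2 and in set 1, ITGA3 was at 898, 547 and 686 CPM. CD151 was at 1122, 798 and 901 CPM, and ITGA6 at 735, 514 and 701 CPM. Donor 3 had 868 CPM of ITGA6 at 80 dyne/cm2 but 1034 CPM in set 1. ITGA1 was lower (-0.62 ± 0.11, SE, adjusted p = 0.018), but against set 1, the control of the other comparison, its value was 0.11. ITGB1, the common β subunit, was at -0.43 (adjusted p = 0.0506) and 0.24 (adjusted p = 0.314), and ITGB4 at -0.15 and -0.10 (adjusted p = 0.62 and 0.541).

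DAG1, the dystroglycan gene, was at -0.08 and 0.27 (adjusted p = 0.518 and 0.15), and BCAM, the Lutheran receptor for α5 laminins, at 0.06 and 0.24 (adjusted p = 0.657 and 0.341). Of 13 genes that build the laminin-binding glycan of dystroglycan, 11 were tested and 0 were called in either comparison by edgeR or DESeq2; with either tool the unadjusted p was under 0.05 for 2 genes under low and 1 under supra-high WSS. Among all genes edgeR called 9.6% and 2.2%. At an unadjusted p under 0.05, 4773 of 11226 genes passed under low and 2921 of 11187 under supra-high WSS with edgeR (4294 and 2338 genes with DESeq2). B4GAT1 was higher at 2 dyne/cm2 by adjusted p alone (0.51 ± 0.08, SE, adjusted p = 0.0167). The medians of that list were 0.027 and 0.057.

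Of 14 basement membrane partners of laminin, 12 were matched and 11 tested, with medians of -0.28 at 2 and -0.12 at 80 dyne/cm2. In each comparison 1 of 11 was called higher and 2 lower. The shares of all genes called were 5.06% and 4.54% for low WSS and 1.14% and 1.05% for supra-high WSS. NID1 and NID2 encode the nidogens, which link the γ1 chain to collagen IV. NID2 was at 934, 995 and 1084 CPM at 2 dyne/cm2 and 1946, 2679 and 2783 CPM in set 1 (-1.27 ± 0.14, SE, adjusted p = 0.00741). NID1 went the other way without passing, at 0.47 ± 0.16 (adjusted p = 0.0928). NID2 at 80 dyne/cm2 was at -0.02 and NID1 at -0.35 (adjusted p = 0.957 and 0.155).

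FBLN1, the matrix glycoprotein fibulin 1, differed most between donors, at 1034, 108 and 772 CPM at 2 dyne/cm2 against 594, 39.5 and 138 CPM in set 1. It was called higher at 2 dyne/cm2 (1.59 ± 0.34, SE, adjusted p = 0.0296) and lower at 80 dyne/cm2 (-1.48 ± 0.09, adjusted p = 0.00152). NTN1, the secreted guidance protein netrin 1, was called lower at 2 dyne/cm2 (-1.33 ± 0.16, SE, adjusted p = 0.00877) and higher at 80 dyne/cm2 (1.27 ± 0.20, adjusted p = 0.0126). FBLN2 was called lower at 80 dyne/cm2 (-1.29 ± 0.23, adjusted p = 0.0181). The FBLN1 call at 2 dyne/cm2 was lost without donor 2 (adjusted p = 0.0828), and NTN1 fell short of 2-fold against set 2 at 2 dyne/cm2 (-0.76) and without donor 2 at 80 dyne/cm2 (0.94). FBLN2 had an adjusted p of 0.138 in one fit of 12 libraries and 0.104 against both sets, and was at -0.96 without donor 3.

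By adjusted p alone NTN4, a netrin that binds γ1, was higher (0.76 ± 0.12, SE, adjusted p = 0.0155) and COL4A2, a collagen IV chain, lower (-0.52 ± 0.12, adjusted p = 0.0376) at 2 dyne/cm2. HSPG2, the perlecan gene, was at -0.37 and 0.24 (adjusted p = 0.141 and 0.492), and AGRN, the agrin gene, at -0.15 and -0.37 (adjusted p = 0.313 and 0.261). COL4A1 was not matched by symbol.

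Of 9 genes for epithelial-type anchoring and laminin processing, 8 were tested, with medians of -0.74 at 2 and 0.39 at 80 dyne/cm2. At 2 dyne/cm2, 3 of 8 were called lower, beside 4.54% of all genes, and at 80 dyne/cm2, 1 of 8 was called higher, beside 1.14%. COL17A1, a transmembrane collagen of hemidesmosomes, was at 0.437, 0.807 and 0.99 CPM at 2 dyne/cm2 and 2.85, 2.36 and 7.17 CPM in set 1 (-2.37 ± 0.32, SE, adjusted p = 0.0115). All cultures at 2 dyne/cm2 were thus under 1 CPM. COL17A1 met the cut of 1 CPM in 3 libraries only through set 1, where it was higher. It was at 1.95, 2.71 and 4.05 CPM in set 2 and 7.31, 9.97 and 11.6 CPM at 80 dyne/cm2 (1.75 ± 0.15, adjusted p = 0.00291). It thus went opposite to LAMA3 in all 3 donors at 2 dyne/cm2, and neither pair of its groups overlapped.

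The proteases MMP14 (-1.70 ± 0.16, SE, adjusted p = 0.00613) and TLL2 (-1.84 ± 0.22, adjusted p = 0.00849) were called lower at 2 dyne/cm2. MMP14 was higher at 80 dyne/cm2 by adjusted p alone (0.81 ± 0.14, SE, adjusted p = 0.0186), as was BMP1, which cleaves procollagens and laminin chains (0.91 ± 0.11, adjusted p = 0.00665). The MMP14 value depends on the control. It was at 984, 1158 and 1001 CPM at 80 dyne/cm2 and 675, 507 and 618 CPM in set 2. Set 1 was at 883, 713 and 1070 CPM, so donor 3 was lower at 80 dyne/cm2 than in set 1. TLL1, of the BMP1 family, was lower in both comparisons (-0.63 ± 0.12, SE, adjusted p = 0.0238 and -0.75 ± 0.14, adjusted p = 0.0198). Without the donor block, 10 of the 12 calls outside the laminin chains at 2 dyne/cm2 (3 of them flow markers) were made again, without FBLN1 and NTN1, and 0 of the 4 at 80 dyne/cm2 (edgeR; 929 of all genes then had an unadjusted p under 0.05). Against set 1 none of these 4 was called, with adjusted p-values of 0.0872 for FBLN1, 0.33 for FBLN2, 0.338 for NTN1 and 0.124 for COL17A1.

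**Figure D4:**
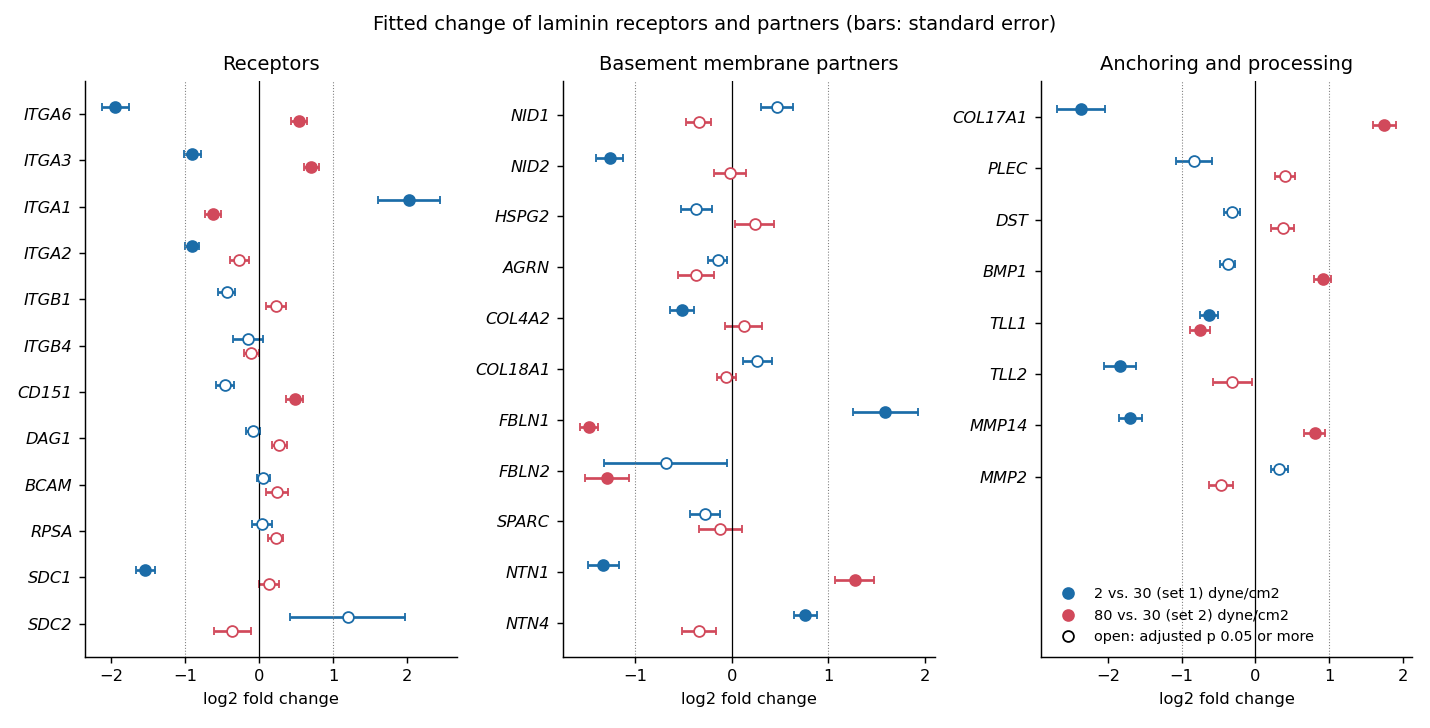
Fitted log2 fold change (x axis) with SE bars of the tested laminin receptors, basement membrane partners, and anchoring and processing genes (y axis) at 2 vs. 30 dyne/cm2 (blue) and 80 vs. 30 dyne/cm2 (red). Filled points have an adjusted p under 0.05 and dotted lines mark 2-fold; COL17A1 lay at -2.37 and 1.75, and ITGA6 at -1.94 and 0.54.

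Over the 12 libraries, with each donor's mean removed, the correlation of log2 CPM was 0.935 between LAMA5 and LAMC1, -0.871 between LAMA5 and LAMA4, 0.845 between LAMA3 and LAMA4 and 0.11 between LAMB1 and LAMB2. Condition took 87% of the spread of LAMA5 and 87.7% of that of LAMC1, but 43.1% of that of LAMB1. The libraries share donors and conditions, so these values are descriptive. Among 9913 genes, those most like LAMA5 were TINAGL1 (r = 0.995) and PLSCR3 (0.993). Those most like LAMA4 were ANTXR1 (0.983) and NID1 (0.982), and those most like LAMC1 were BCL9L (0.984) and SPN (0.982).

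The closest to LAMA3 were CCDC71 (r = 0.986) and POGK (0.978), and to LAMB2 ULK1 (0.965) and ADRA2C (0.961). LAMB1 had the least similar neighbours, SIPA1L3 (0.931) and DPF1 (0.907).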

How the data were processed

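RNA-seq libraries (single-end, TruSeq) of 12 cultures were analysed. STAR 2.4 (alignment to Sscrofa11.1, uniquely placed reads kept) and featureCounts 1.4.6 (merged exons as gene models) were run by the authors, who deposited raw counts per gene. Discarding such reads lowers the counts of genes with near-identical copies. Of 21153 genes, 14572 had a symbol. Positions are from RefSeq on Sscrofa11.1.

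The main test was the quasi-likelihood test of edgeR 4.0.16 after TMM scaling (limma 3.58.1, R 4.3.3), with DESeq2 1.42.0 as an alternative. A gene entered a fit when 3 or more libraries of the comparison reached 1 CPM. The study filters at 1 RPKM, and no gene lengths were used here. SE is the size of the log2 fold change divided by the square root of F. A prior count of 2 was used for log2 CPM. The floor of 3 counts covers counting error only. The statistics were tested on simulated data.

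The donor block follows the methods, which compare cultures of the same donor and passage, and the donor codes in the labels. Deviations from the group means correlated at 0.672 to 0.876 in 18 same-donor pairs and at -0.552 to -0.19 in 36 others, over 11568 genes. Deviations within a group cancel out, so positive same-donor values make the others negative, and the negative range adds no evidence. Sample labels leave the matching of the 30 dyne/cm2 sets open; set 1 was taken for 2 and set 2 for 80 dyne/cm2. With the donor block, the edgeR p-values rest on how far the within-donor differences vary among 3 pigs. Their variance estimates also draw on the other genes.

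The chains and gene lists were chosen with earlier results of these data known. Named are the 7 chains, the other laminin chains, list genes past both thresholds or fixed by name, and the 2 genes most like each chain; list genes passing by adjusted p alone were named after their values were seen. One gene of the lists is not reported here. The planned chain shares per length needed transcript lengths, which were not used here, so ratios of 2 chains within a donor replaced them, chosen after seeing the data. Alternatives were the unblocked fit, other normalization, tool, filter and control set, one fit of 12 libraries, and leaving out each donor.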

Additional observations from a re-analysis of the deposited data

Results flagged for a closer look

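The responses to 80 and 2 dyne/cm2 differed for 4 of 6 laminin chains tested and for LAMA1, beside 37.1% of all 11568 genes. The test was edgeR's quasi-likelihood test of the difference over 12 libraries with the donor block, Benjamini-Hochberg adjusted. The response to 80 minus that to 2 dyne/cm2 was -4.64 for LAMA3 (adjusted p = 0.001), -1.04 for LAMA4 (adjusted p = 0.0107), 2.29 for LAMA5 (adjusted p = 0.000504), 0.87 for LAMC1 (adjusted p = 0.00466) and -0.82 for LAMA1 (adjusted p = 0.0168), on the log2 scale. LAMA3 rests on at most 20 counts per library at 80 dyne/cm2, and its adjusted p was 0.105 without the donor block. The adjusted p of LAMA4 was 0.104 without donor 1 and 0.0761 without donor 3. That of LAMA1 was 0.319 without the block, 0.165 without donor 2 and 0.0966 without donor 3.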

How the results depend on the processing

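Of 282 values of laminin chains and LAMA1 under alternatives, 261 kept their direction and side of the threshold, 7 lost a call, 3 gained one and 11 changed sign. Of 672 values of the other named genes these counts were 614, 33, 9 and 16. Both totals include the main fit read by adjusted p alone, where no direction can change. The gains of LAMC1 at 2 and LAMA5 at 80 dyne/cm2 came only from that reading. Values below 2-fold in the main fit count as kept even where their adjusted p rose over 0.05. Examples are LAMA5 at 80 dyne/cm2 without the block (edgeR adjusted p = 0.47) and LAMC1 at 2 dyne/cm2 without donor 1 (0.14). LAMA5 was called at 2 dyne/cm2 under every alternative run. Without the replicate block, 1 chain instead of 2 was called at 2 dyne/cm2 (LAMA3 lost), and all genes called fell to 635 (from 1078) at 2, 0 (from 246) at 80 dyne/cm2, 0 (from 1) between the sets and 1746 (from 4294) for the difference; by edgeR without the block, 929 and 473 genes had an unadjusted p under 0.05 at 80 dyne/cm2 and between the sets. By adjusted p alone the counts were 2895, 940 and 2, and 1 chain at 80 dyne/cm2. At 80 dyne/cm2, 136 genes were called in one fit of 12 libraries, 24 against set 1, 128 against both sets, and 144 to 343 leaving out one donor. Between the sets the counts were 66 with DESeq2, 46 without a filter, 6 with filterByExpr, 0 in one fit of 12 libraries (1605 at an unadjusted p under 0.05), and 0 to 122 leaving out one donor. For the difference, leaving out one donor gave 1995 to 3375. The causes were not tested. Changes of sign were all of values that did not pass, except ITGA1 at 80 dyne/cm2.

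At 2 dyne/cm2 BCAM became -0.12 against set 2 and -0.031 against both sets; leaving out one donor, FBLN2 lay between -1.40 and 0.24 and ITGB4 between -0.44 and 0.048. At 80 dyne/cm2 against set 1, ITGA1 became 0.11, ITGB1 -0.022, ITGB4 0.27, LAMA1 0.030 and LAMB1 -0.17; against both sets ITGB4 became 0.081 and LAMB1 -0.063; without the block NID2 became 0.043. Leaving out one donor at 80 dyne/cm2, HSPG2 lay between -0.0095 and 0.41, LAMB1 between -0.10 and 0.16, SDC1 between -0.075 and 0.24, NID2 between -0.20 and 0.19 and TLL2 between -0.69 and 0.073. Between the sets LAMA3 became -0.065 with DESeq2, -0.0045 without a filter, -0.0031 with filterByExpr and -0.0077 in one fit of 12 libraries; leaving out one donor, LAMA3 lay between -0.028 and 0.041 and LAMC1 between -0.21 and 0.0069. For the difference FBLN2 became 0.21 without the block; leaving out one donor, it lay between -1.70 and 0.43 and ITGB4 between -0.15 and 0.30. The planned shares of chains per length were not run. Depth limits LAMA3, with 1 to 547 counts per library, and LAMB3.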
